A study of Homo sapiens with 6 samples.

Results

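The genes examined here encode the machinery that fuses synaptic vesicles with the plasma membrane. The 43 members were chosen by symbol from the 63677 rows of the count table: 17 synaptotagmins (SYT1 to SYT17), 8 SNARE genes, 9 genes of vesicle proteins, 7 genes of the active zone and of vesicle priming, and 2 complexins. All 43 symbols were found, 4 of them (SYT15, STX1A, SYP and SV2A) with an additional identifier that held 0 counts in every library, and the identifier with counts was used. The cells were human embryonic stem cells of a pair of lines, Royan H6 (abbreviated RH6) and Royan H5 (RH5), and fell into 4 groups. Naive RH6 (2 libraries, passage 10) and naive RH5 (2 libraries, passage 17) were induced with a condition that the labels call 2a2iL and then kept in 2iL medium with trypsin passaging, whereas primed RH6 (1 library, passage 20) and primed RH5 (1 library, passage 16) were kept in medium with bFGF. Cells of all groups grew on inactivated mouse embryonic fibroblasts, and none of the groups is described as carrying a genetic change. State and medium changed together and cannot be told apart, and since the labels do not tell whether naive duplicates were grown separately, the p-values cover the spread among these libraries alone, which may be technical.

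In a nerve terminal, transmitter is stored in vesicles that carry synaptophysin, SV2 proteins and synapsins. Fusion is driven by a bundle of SNARE proteins, with a VAMP on the vesicle and a syntaxin and a SNAP protein on the target membrane, and it is started by calcium binding to a synaptotagmin while complexins hold or release the bundle. RIM, Munc13, bassoon and piccolo proteins dock and prime vesicles at the active zone. Neuronal SNAREs have close relatives (SNAP23, STX3, STX4 and VAMP3) that serve secretion and membrane traffic in most cell types. Many genes of this machinery are kept silent outside neurons by the repressor REST, which binds a DNA element called RE1. Pluripotent stem cells express REST and are not known to have synapses.

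Because REST is tied to this gene group, the RefSeq promoters of the members were searched on both strands for a 17-letter stretch of the RE1 consensus. Each promoter reached from 250 bases before to 50 after the gene start (GRCh38.p14). Letters of the consensus outside this stretch were not searched. Of the 17 letters searched 15 are fixed, and they are those of the capitals in the SYN1 window printed here, apart from positions 10 and 11, which may be any base. A promoter was found for 34 of the 43 members. With at most 1 mismatch the stretch stood in 2 of these 34 promoters, SYN1 and RPH3A, and in 0.0549% of 27305 promoters. With at most 3 mismatches it stood in 5 of 34 and in 1.32% of all promoters. The windows around the matches that lie wholly before the gene start, in SYN1, RPH3A, SV2C and SYT15, are shown. SYN1 and RPH3A fell in naive cells, SV2C rose and SYT15 was not called. The direction of RPH3A was set by the low-count filter described below. The calls of SYN1 and SV2C were lost under 6 and 5 of 11 alternatives. A link between matches and calls was not tested. All windows are written 5′ to 3′ on the gene's strand, with the match in capitals. The windows are chrX:47620049-47620107 (minus strand) for SYN1, chr12:112791527-112791593 (plus) for RPH3A, chr5:76083248-76083314 (plus) for SV2C and chr10:46579024-46579090 (plus) for SYT15.
SYN1: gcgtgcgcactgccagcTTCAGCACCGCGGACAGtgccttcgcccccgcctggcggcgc
RPH3A: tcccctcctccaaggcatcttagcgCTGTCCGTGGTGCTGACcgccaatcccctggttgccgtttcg
SV2C: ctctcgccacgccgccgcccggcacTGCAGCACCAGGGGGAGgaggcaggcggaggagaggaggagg
SYT15: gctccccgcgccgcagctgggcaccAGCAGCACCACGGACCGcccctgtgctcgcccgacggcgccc
SYN1 matched every fixed letter of the searched stretch. RPH3A held the stretch on the opposite strand with the substitution T1G, SV2C differed by T2G, A14G and C15G, and SYT15 by T1A, T2G and A16C, with positions counted from 1 at the 5′ end of the searched letters. A match describes letters only and is not a measured binding site.

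Total counts per library were 13457979 to 14663982, so that 1 count stood for 0.0669 to 0.0745 CPM (read counts relative to library size, with sizes scaled by TMM factors of 0.964 to 1.029). The 10 markers of pluripotent cells, POU5F1 among them, were present in every library, with a summed level of 7117 to 9109 CPM in naive and 11145 and 11657 CPM in primed libraries. Of these 10 markers 6 were called lower in naive cells over both lines and 0 higher (60%, against 25.7% of all genes tested), with DNMT3B at -2.20 ± 0.12 and SOX2 at -1.33 ± 0.15 on the log2 scale. The members took 0.0643% to 0.0726% of the counts of each naive library and 0.102% and 0.107% of those of the primed libraries. Of the 43, 40 passed the filter on low counts and were tested, and SYT8, SNAP25 and CPLX1 did not. SYT8 had 0 counts in all 6 libraries, which allows up to 3 counts in each, or 0.201 to 0.223 CPM.

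The main comparison asked how the release genes differ between naive and primed cells over both lines. Of the 40 tested members 22 were lower in naive cells, among them the synaptotagmin genes SYT6, SYT7 and SYT13, the priming gene UNC13A, the scaffold gene PCLO, the synapsin gene SYN3 and the complexin gene CPLX2. The 2 higher ones were the SNARE gene VAMP3 and the vesicle glycoprotein gene SV2C. By edgeR's quasi-likelihood test, the share that fell was 55% (22) and the share that rose 5% (2). Over all 19434 genes tested, 25.7% were called, 13.6% lower and 12.1% higher. The median log2 fold change was -1.06 over the 40 members and -0.01 over all genes tested. At least 2-fold falls were called for 18 members and in 8.95% of all genes. In 27 members all 4 naive libraries lay below both primed libraries (22.8% of all genes), and in 4 they lay above both (21.5% of all genes).
Part of this count was set by the filter. Of the 40, 8 (SYT3, SYT5, SYT9, SYT12, SYT16, SYP, SV2B and RPH3A) reached the filter's level of 0.71 CPM in the primed libraries alone and could hardly be anything but lower in naive cells. The median, the 2-fold falls and the 27 members with all naive libraries below the primed ones draw on these 8 too. All 8 are among the 27, so these figures overstate the falls among the members. Of the 32 members that reached it in both states, 15 fell (46.9%) and 2 rose (6.25%), and of the 16336 genes that did so 13.2% fell and 11.4% rose. The number of calls depended on the naive duplicates, and with the duplicates of each line summed 9 members fell and 0 rose. Over all genes 1127 were then called in place of 4996, so calls were lost across the whole table. These 9 members were SYT2, SYT6, SYT9, SYT12, SYT13, SYN3, UNC13A, PCLO and CPLX2, and they were called under every alternative tried. SYT9 and SYT12 are among those whose direction was set by the filter.

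**Figure D1:**
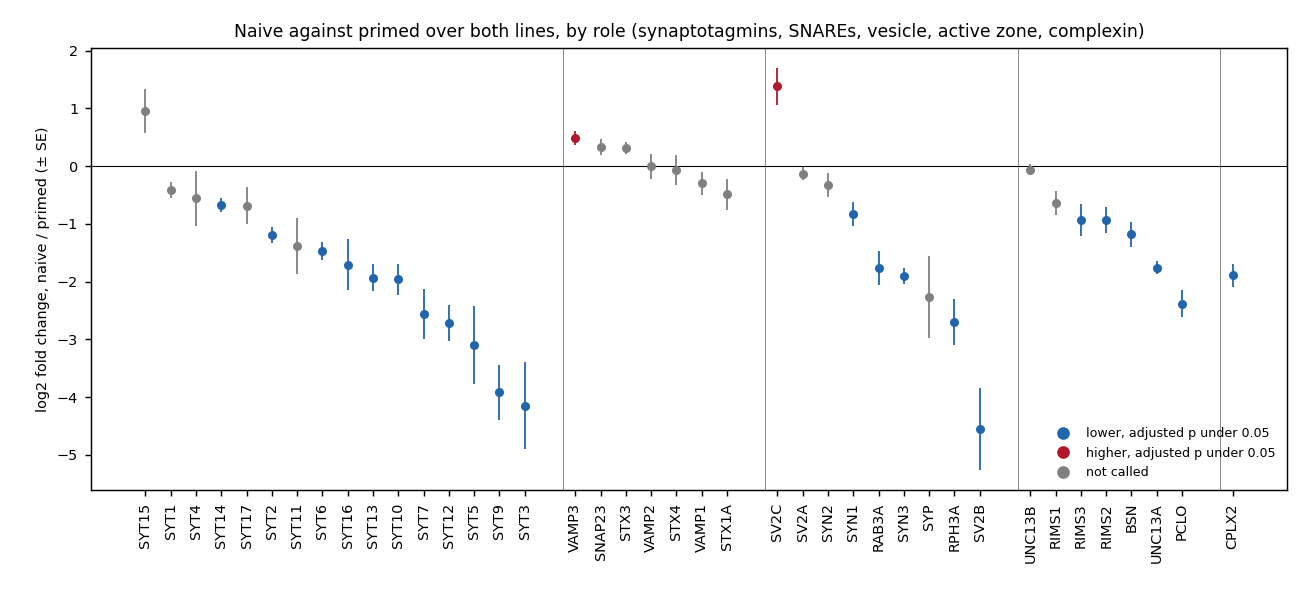
Log2 fold change of naive over primed cells (y axis, points with SE bars) for the 40 tested members, ordered by role and by size within each role. Blue points are called lower, red points higher and grey points not called. Synaptotagmins reach from 0.95 for SYT15 to -4.15 for SYT3, which passed the low-count filter through the primed libraries alone. Among the synaptotagmins that passed it in both states the lowest is SYT7 at -2.56. The 7 SNARE genes, which all passed in both states, lie between -0.49 and 0.48.

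Synaptotagmins are vesicle proteins with a pair of C2 domains, and several of them sense calcium. Of the 17, 16 were tested, 11 fell and 0 rose, where 13.6% of all genes fell and 12.1% rose. The direction of 5 of the 11 (SYT3, SYT5, SYT9, SYT12 and SYT16) was set by the filter, which they passed through the primed libraries alone. Of the 11 synaptotagmins that reached it in both states, 6 fell. SYT6 was at 29.1 and 22.8 CPM in the naive RH6 libraries, 38.2 and 39.8 CPM in naive RH5, 86.2 CPM in primed RH6 and 88.9 CPM in primed RH5. The states did not overlap, the naive libraries of RH6 were the lowest, and the log2 fold change was -1.47 ± 0.16 (SE, adjusted p = 0.00114). SYT7, a slow and high-affinity calcium sensor, was at 4.83 and 2.86 CPM in naive RH6, 12.2 and 11.8 CPM in naive RH5, 44.7 CPM in primed RH6 and 33.1 CPM in primed RH5. Its naive libraries were all below the primed ones, by -2.56 ± 0.43 on the log2 scale (adjusted p = 0.00654), and the naive lines stood apart from each other. With the naive duplicates summed the adjusted p of SYT7 was 0.062. SYT13, whose C2 domains lack the calcium-binding residues, was at 5.39 and 4.04 CPM in naive RH6, 5.15 and 6.85 CPM in naive RH5, 23.5 CPM in primed RH6 and 17.1 CPM in primed RH5. No naive library came near a primed one, and the log2 fold change was -1.93 ± 0.24 (adjusted p = 0.00197).

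SYT2, a fast calcium sensor for synchronous release, stood at 12.0 and 13.5 CPM in naive RH6, 20.4 and 17.3 CPM in naive RH5, 32.0 CPM in primed RH6 and 39.3 CPM in primed RH5. It was lower in all naive libraries, by -1.19 ± 0.14 on the log2 scale (adjusted p = 0.00159). In GENCODE 29, 27.2% of the exon bases of SYT2 overlap exons of PPP1R12B on the opposite strand, and PPP1R12B itself had a log2 fold change of -0.28 ± 0.14 (adjusted p = 0.18). The strand setting of the counting is not given in the sources used here, so reads of this gene pair cannot be told apart over those bases. SYT14 was at 17.6 to 21.7 CPM in the naive libraries and at 30.7 and 30.5 CPM in the primed ones, a log2 fold change of -0.67 ± 0.13 (adjusted p = 0.00992), the smallest called fall among the synaptotagmins. SYT10 was at 0.988 to 1.27 CPM in naive and 5.35 and 3.76 CPM in primed libraries (-1.96 ± 0.27, adjusted p = 0.00283). Both were lower in 4 of 4 naive libraries, and both calls were lost with the duplicates summed (adjusted p = 0.159 and 0.0622).

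Several synaptotagmins were close to absent in naive cells. SYT9, another fast calcium sensor, had 17 counts over the 4 naive libraries and 148 over the 2 primed ones, at 0.147 to 0.423 CPM against 7.29 CPM in primed RH6 and 2.82 CPM in primed RH5. The ratio of its summed counts, scaled for depth, was 16.8 with an exact counting interval (95%) of 10.1 to 29.6. SYT3 had 0 and 1 counts in naive RH6, 6 and 8 in naive RH5, 91 in primed RH6 and 44 in primed RH5. Primed cells thus held 17.4 times as many of its counts per depth over both lines (interval 10.2 to 31.9). SYT12 had 28 naive and 96 primed counts, 6.61 times as many in primed cells (interval 4.30 to 10.5), and SYT5 had 18 and 64, or 6.85 times as many (4.01 to 12.3). Both naive RH6 libraries held 0 counts of SYT5 and primed RH6 held 19, which is at least 5.91-fold lower in naive cells against a floor of 3 counts per library. With the naive duplicates summed the calls of SYT3 (adjusted p = 0.0816) and SYT5 (0.117) were lost, and that of SYT5 also without the line term (0.106). SYT16 had 23 naive and 39 primed counts (log2 fold change -1.71 ± 0.44, adjusted p = 0.0304), a call lost under 7 of 11 alternatives, with an adjusted p of 0.0816 by DESeq2, 0.0567 to 0.179 without single libraries (naive RH6 replicate 1 or 2, naive RH5 replicate 1 or 2, or primed RH5) and 0.161 with the duplicates summed. The counting intervals given here cover counting error only.

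Not every synaptotagmin gene was called. SYT1, the main calcium sensor of synchronous release, was at 39.0 and 33.4 CPM in naive RH6, 44.9 and 42.6 CPM in naive RH5, 55.7 CPM in primed RH6 and 50.4 CPM in primed RH5. All naive libraries were lower, with a log2 fold change of -0.42 ± 0.14 that missed the threshold (adjusted p = 0.0639). A call was made without primed RH5, which leaves the contrast within RH6 (adjusted p = 0.00578). SYT11, which does not bind calcium, had -1.38 ± 0.48 (adjusted p = 0.0771). SYT11 passed with no low-count filter (adjusted p = 0.0172) and without primed RH5 (9.70e-04). SYT17 had -0.69 ± 0.32 (adjusted p = 0.168), and was called without primed RH5 (0.0233). SYT15 was the one tested synaptotagmin with a positive estimate, at 1.49 to 3.43 CPM in naive and 1.4 and 1.37 CPM in primed libraries (0.95 ± 0.38, adjusted p = 0.11). SYT4 is described with the lines below.

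**Figure D2:**
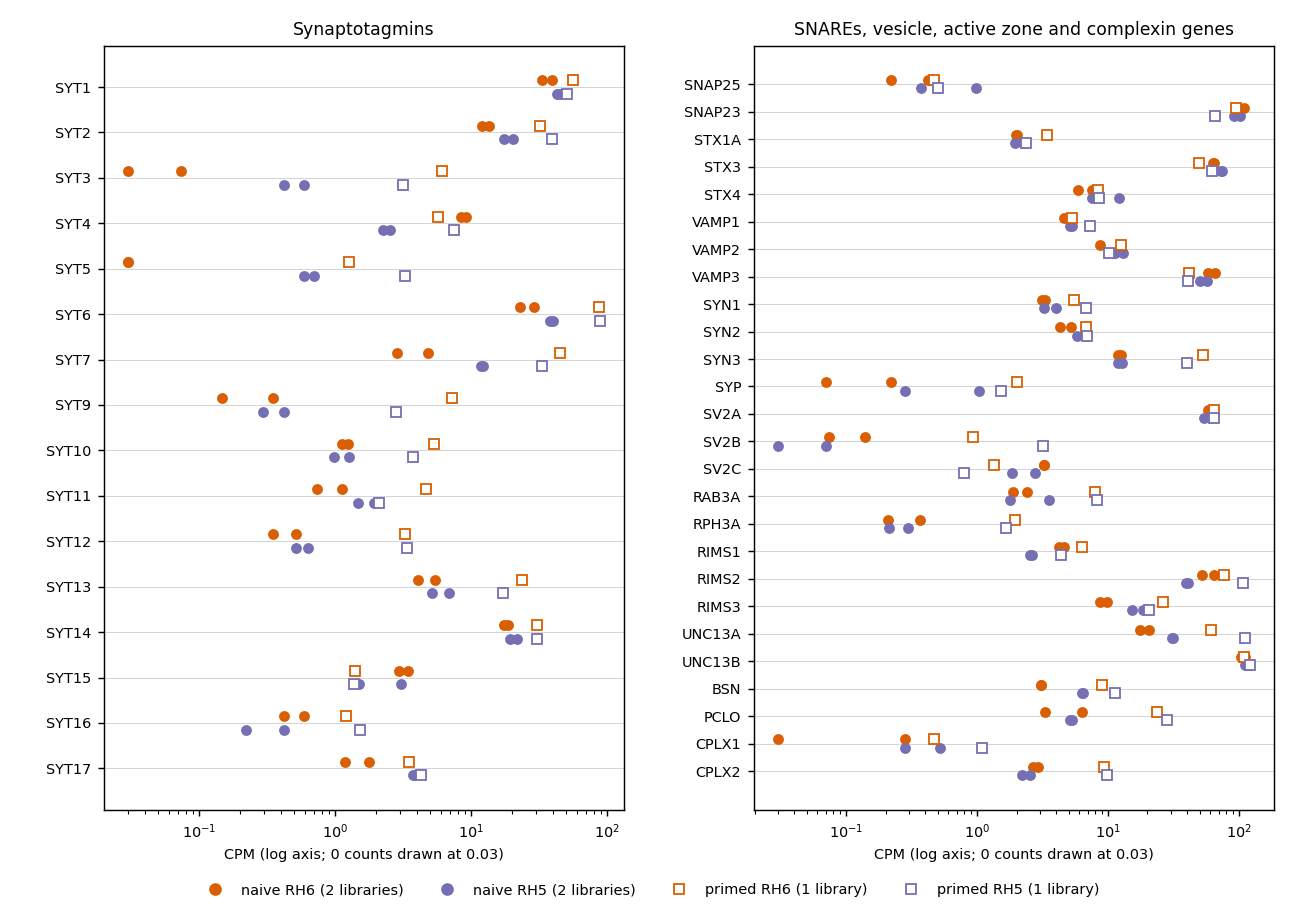
CPM (x axis, log scale) of the 42 members with a count, with synaptotagmins on the left and the other members on the right; filled circles are naive and open squares primed libraries, orange is RH6 and purple RH5, and libraries with 0 counts are drawn at 0.03. The open squares of SYT6 sit at 86.2 and 88.9 CPM, to the right of all filled circles, while squares and circles of VAMP2 and UNC13B mix.

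Of the 8 SNARE genes 7 were tested, 1 rose and 0 fell, 14.3% against 25.7% over all genes. VAMP3, the vesicle SNARE of recycling endosomes in most cells, was at 65.9 and 58.4 CPM in naive RH6, 57.4 and 49.9 CPM in naive RH5, 41.8 CPM in primed RH6 and 40.8 CPM in primed RH5. It was higher in 4 of 4 naive libraries, and its log2 fold change was 0.48 ± 0.12 (adjusted p = 0.0283). That call was lost under 6 of 11 alternatives, with adjusted p-values of 0.051 without the line term, 0.0518 to 0.1 without single libraries (naive RH6 replicate 1 or 2, naive RH5 replicate 1, or primed RH6) and 0.197 with the duplicates summed. STX3, a syntaxin of epithelial apical membranes and ribbon synapses, was at 64.8 and 63.4 CPM in naive RH6, 74.1 and 73.5 CPM in naive RH5, 49.2 CPM in primed RH6 and 61.9 CPM in primed RH5. Its states did not overlap, but the difference of 0.32 ± 0.10 was not called (adjusted p = 0.0553). STX3 passed by DESeq2 (adjusted p = 0.0423) and without primed RH5 (0.0232). SNAP23, the SNAP protein of non-neuronal cells, was at 98.3 and 109.8 CPM in naive RH6, 91.1 and 100.9 CPM in naive RH5, 95.2 CPM in primed RH6 and 65.9 CPM in primed RH5. Only primed RH5 lay apart, and over both lines SNAP23 missed the threshold (0.33 ± 0.13, adjusted p = 0.113). Leaving out primed RH6, and so comparing within RH5, it was called (0.00904).

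Of the SNAREs typical of neurons, SNAP25 and STX1A were at low levels in both states. SNAP25, the neuronal partner of STX1A, had 28 counts over the 4 naive and 14 over the 2 primed libraries, at 0.22 to 0.988 CPM and 0.468 and 0.506 CPM. The depth-scaled ratio of primed to naive counts was 0.964 with an interval of 0.469 to 1.89, so that a difference within these bounds, in either direction, was not detectable at this depth. STX1A, the syntaxin of synaptic release, was at 1.94 to 2.26 CPM in naive and 3.41 and 2.38 CPM in primed libraries (-0.49 ± 0.27, adjusted p = 0.237). In GENCODE 29, 17.9% of its exon bases overlap exons of BUD23 on the opposite strand. VAMP2, the main synaptic vesicle SNARE, stood higher, at 8.60 to 12.9 CPM in naive libraries, 12.6 CPM in primed RH6 and 10.1 CPM in primed RH5. Its states overlapped (-0.01 ± 0.22, adjusted p = 0.989), as did those of VAMP1 (-0.30 ± 0.20, adjusted p = 0.317) and STX4 (-0.06 ± 0.26, adjusted p = 0.885). Of the exon bases of VAMP1, 9.47% overlap exons of TAPBPL on the opposite strand in GENCODE 29. For VAMP2, 13.2% of the exon bases overlap exons of AC129492.3 on the same strand, a gene with 0 counts.

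Levels were compared between SNARE genes per kilobase of exon, with the union of the exons in GENCODE 29, which is on another build than the counts. SNAP23 was at 16.9 ± 1.30 CPM per kb in naive libraries (SD, n = 4) and at a mean of 13.6 in primed ones, and SNAP25 at 0.149 ± 0.1001 and 0.145. STX3 was at 10.5 ± 0.857 and 8.46 CPM per kb, and STX1A at 0.556 ± 0.0386 and 0.785. VAMP3 was at 21.0 ± 2.37 and 14.97 CPM per kb, VAMP2 at 3.47 ± 0.593 and 3.47, and VAMP1 at 1.41 ± 0.0806 and 1.75. In each of the 3 SNARE families a form of general membrane traffic (SNAP23, STX3 or VAMP3) was thus far above the neuronal forms, in both states and in every library. STX4, the other general syntaxin, was at 2.035 ± 0.666 and 2.08 CPM per kb. It was above STX1A by a smaller margin and below VAMP2 in the means of both states.

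**Figure D3:**
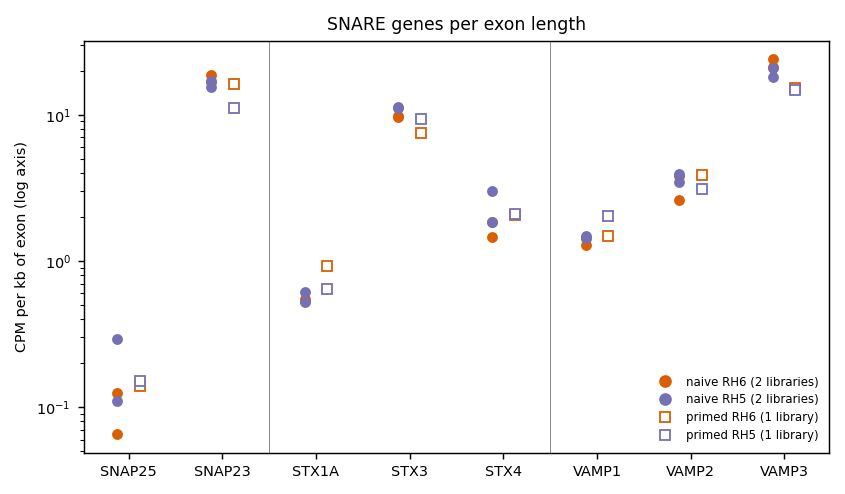
CPM per kilobase of exon (y axis, log scale) of the 8 SNARE genes in each library; filled circles are naive and open squares primed libraries, orange is RH6 and purple RH5, and vertical lines part the SNAP, syntaxin and VAMP families. SNAP23, STX3 and VAMP3 stand highest in their families in all 6 libraries.

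Of the 9 genes of vesicle proteins, all tested, 5 fell and 1 rose, against 13.6% and 12.1% of all genes. SYP, SV2B and RPH3A passed the filter through the primed libraries alone, and of the other 6 genes 3 fell and 1 rose. SYN3, a synapsin found early in neuronal development, was at 12.0 and 12.5 CPM in naive RH6, 12.7 and 12.0 CPM in naive RH5, 53.0 CPM in primed RH6 and 39.8 CPM in primed RH5. The 4 naive libraries were nearly level, at 12.3 ± 0.365 CPM (SD, n = 4), and the log2 fold change was -1.91 ± 0.14 (adjusted p = 2.60e-04). SYN1, which ties vesicles to the cytoskeleton and whose promoter window is printed above, was at 3.15 and 3.30 CPM in naive RH6, 3.25 and 4.02 CPM in naive RH5, 5.49 CPM in primed RH6 and 6.79 CPM in primed RH5. It fell by 0.83 ± 0.21 on the log2 scale (adjusted p = 0.0272). Its call was lost without naive RH6 replicate 1 (adjusted p = 0.0727) or 2 (0.0731), naive RH5 replicate 1 (0.0935) or 2 (0.0614) or primed RH5 (0.0657), and with the duplicates summed (0.241). SYN2 was not called (-0.33 ± 0.21, adjusted p = 0.295).

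The small GTPase gene RAB3A, whose protein recruits RIM and rabphilin to vesicles, was at 1.89 and 2.42 CPM in naive RH6, 3.53 and 1.79 CPM in naive RH5, 7.96 CPM in primed RH6 and 8.31 CPM in primed RH5. It was lower in 4 of 4 naive libraries (-1.76 ± 0.29, adjusted p = 0.00608), a call lost with the duplicates summed (0.0531). Rabphilin, the RAB3A effector encoded by RPH3A, had 15 naive and 52 primed counts, 6.68 times as many in primed cells (interval 3.70 to 12.8). Its call (adjusted p = 0.00377) was also lost with the duplicates summed (0.0534). The major vesicle membrane protein gene SYP had 22 naive counts, 14 of them in 1 naive RH5 library (replicate 2), and 51 primed counts. It was not called (-2.27 ± 0.71, adjusted p = 0.0553), but was by DESeq2 (0.0379), with no low-count filter (0.00464), without naive RH5 replicate 2 (0.0187) and without primed RH5 (0.00591).

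The SV2 genes, which encode transporter-like vesicle glycoproteins, differed from each other. SV2A, the broadly expressed form, was at 62.5 and 57.5 CPM in naive RH6, 61.1 and 54.5 CPM in naive RH5, 63.9 CPM in primed RH6 and 64.9 CPM in primed RH5. All 4 naive libraries lay below the primed ones by a small margin that was not called (-0.13 ± 0.11, adjusted p = 0.417). SV2B had 4 counts over all naive libraries and 14 and 44 in primed RH6 and RH5, 27.9 times as many per depth in primed cells (interval 10.4 to 106). It fell with an adjusted p of 0.00486, and 0.0519 with the duplicates summed. SV2C went the other way. It was at 3.22 and 3.23 CPM in naive RH6, 2.75 and 1.86 CPM in naive RH5, 1.34 CPM in primed RH6 and 0.794 CPM in primed RH5, and rose, its log2 fold change being 1.38 ± 0.32 (adjusted p = 0.0203). The call of SV2C was lost without the line term (adjusted p = 0.0503), without naive RH6 replicate 1 (0.056) or 2 (0.0629) or naive RH5 replicate 1 (0.063), and with the duplicates summed (0.144). Per kilobase of exon SV2A stood at 12.2 CPM in naive and 13.4 CPM in primed cells, against 0.23 and 0.0886 for SV2C and 0.0057 and 0.165 for SV2B.

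Of the 7 genes of the active zone and of priming, 5 fell and 0 rose, against 13.6% and 12.1% of all genes, and all 7 reached the filter's level in both states. UNC13A, which encodes Munc13-1 and makes vesicles ready for fusion, was at 17.5 and 20.6 CPM in naive RH6, 31.0 and 31.5 CPM in naive RH5, 61.2 CPM in primed RH6 and 110.8 CPM in primed RH5. In each line the primed library was far above both naive ones, and the log2 fold change was -1.76 ± 0.11 (adjusted p = 1.61e-04), the smallest adjusted p among the members. UNC13B, the Munc13 form also found outside neurons, was at 103.7 to 117.2 CPM in the naive and 109.1 and 122.1 CPM in the primed libraries. Its states overlapped (-0.06 ± 0.09, adjusted p = 0.679). PCLO, the gene of the scaffold protein piccolo, was at 3.29 and 6.32 CPM in naive RH6, 5.08 and 5.29 CPM in naive RH5, 23.8 CPM in primed RH6 and 28.4 CPM in primed RH5. The states were well apart (-2.38 ± 0.24, adjusted p = 8.47e-04).
The related scaffold gene BSN (bassoon) was at 3.08 in both naive RH6 libraries, 6.35 and 6.48 CPM in naive RH5, 9.03 CPM in primed RH6 and 11.3 CPM in primed RH5. It fell as well, by 1.18 ± 0.22 on the log2 scale (adjusted p = 0.00904), though not without the line term (0.0806) or with the duplicates summed (0.124). The RIM gene RIMS2, whose protein tethers vesicles and calcium channels, fell by 0.93 ± 0.23 (adjusted p = 0.0243), and the RIM gene RIMS3 by 0.93 ± 0.27 (0.045). RIMS1 was not called (-0.64 ± 0.21, adjusted p = 0.0648). The RIMS2 call was lost without naive RH6 replicate 1 (adjusted p = 0.0654), naive RH5 replicate 1 (0.0865) or 2 (0.0771) or primed RH5 (0.0897), and with the duplicates summed (0.146). The RIMS3 call was lost without the line term (0.108), without any one of the naive libraries (0.0519 to 0.15) or primed RH6 (0.264), and with the duplicates summed (0.225).

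Complexins clamp the SNARE bundle until calcium arrives. CPLX2 was at 2.66 and 2.94 CPM in naive RH6, 2.19 and 2.53 CPM in naive RH5, 9.23 CPM in primed RH6 and 9.89 CPM in primed RH5. The states lay far apart relative to the spread within each, and the log2 fold change was -1.89 ± 0.20 (adjusted p = 0.00116). CPLX1 was not tested, with 15 naive and 22 primed counts, 2.83 times as many in primed cells (interval 1.402 to 5.86).

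Within the lines, naive RH6 and naive RH5 were each compared with the primed library of the same line, with the single primed libraries taken to vary as much as naive duplicates do. In RH6, 23 members fell and 3 rose, where 17.2% of all genes fell and 16.4% rose. In RH5, 22 fell and 2 rose, where 17% of all genes fell and 16.5% rose. Both counts of falls include members from the 8 that passed the filter through the primed libraries alone. The direction of those members was set by the filter, so these shares overstate the falls among the members. By DESeq2 the members that fell in RH5 numbered 14. The state effect itself differed between the lines for 6 of the 40 members (15%), against 12% of all genes (5.86% with the higher effect in RH6 and 6.16% with the lower), so that this share was close to the background. Among the members these were 2 and 4. The effects of UNC13A were almost equal, at -1.69 ± 0.13 in RH6 and -1.82 ± 0.13 in RH5, and so were those of PCLO, at -2.32 ± 0.27 and -2.45 ± 0.26.

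**Figure D4:**
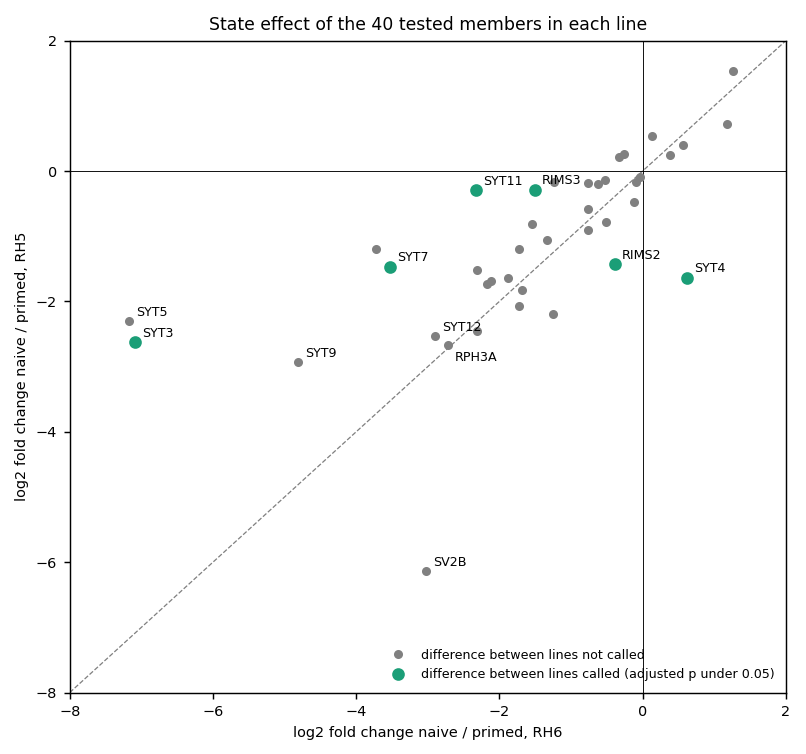
Log2 fold change of naive over primed cells in RH6 (x axis) and in RH5 (y axis) for the 40 tested members; green points are the 6 whose effect differed between the lines, and the dashed line marks equal effects. SYT4 lies at 0.62 in RH6 and -1.63 in RH5; the fitted values of SYT3, SYT5 and SV2B rest on 0 to 3 naive counts in a line and are not measures of size.

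SYT4, an activity-regulated synaptotagmin of dense-core vesicles, was at 9.23 and 8.44 CPM in naive RH6 but at 2.26 and 2.53 CPM in naive RH5, with 5.75 CPM in primed RH6 and 7.44 CPM in primed RH5. The naive libraries thus lay on either side of the primed ones. The effect of 0.62 ± 0.23 in RH6 was not called (adjusted p = 0.0681), that of -1.63 ± 0.25 in RH5 was (7.80e-04), and the difference was 2.25 ± 0.35 (adjusted p = 0.00248). RIMS2 was at 51.9 and 64.9 CPM in naive RH6, 39.1 and 40.7 CPM in naive RH5, 76.3 CPM in primed RH6 and 107.3 CPM in primed RH5. Its effect was weaker in RH6 (-0.39 ± 0.14) than in RH5 (-1.43 ± 0.14), with a difference of 1.04 ± 0.21 (adjusted p = 0.0096). SYT7 went further down in RH6 (-3.53 ± 0.22) than in RH5 (-1.47 ± 0.20), a difference of -2.07 ± 0.31 (adjusted p = 0.00205).
RIMS3 was at 8.67 and 9.77 CPM in naive RH6, 18.6 and 15.3 CPM in naive RH5, 26.2 CPM in primed RH6 and 20.7 CPM in primed RH5. The difference of -1.22 ± 0.25 was called (adjusted p = 0.0118), but not by DESeq2 (0.0539). SYT11 differed by -2.03 ± 0.57 (adjusted p = 0.0464), a call lost by DESeq2 (0.345) and without naive RH6 replicate 2 (0.0707) or naive RH5 replicate 2 (0.0721). For SYT3, primed RH6 held 169.9 times as many counts per depth as naive RH6 (interval 29.7 to 6784, from 1 naive count), and primed RH5 6.26 times as many as naive RH5 (3.37 to 12.4). The difference was called (adjusted p = 0.0196), but not by DESeq2 (0.108).

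Between the naive lines, 12 of 40 members differed (30%), against 25.5% of all genes (12% higher and 13.5% lower in naive RH6). SYT4 (1.88 ± 0.21, adjusted p = 1.63e-04), RIMS2 (0.55 ± 0.12) and RIMS1 (0.77 ± 0.24, adjusted p = 0.0389) were higher in naive RH6. RIMS1 lost its call without any one naive library (adjusted p = 0.0532 to 0.149) and by DESeq2 (0.306). The other 9, SYT2, SYT3, SYT5, SYT6, SYT7, SYT17, RIMS3, UNC13A and BSN, were lower in naive RH6. Of these, SYT2 lost its call by DESeq2 (adjusted p = 0.078) and without naive RH5 replicate 1 (0.0746), SYT3 by DESeq2 (0.1) and without naive RH6 replicate 1 (0.0835), and SYT17 by DESeq2 (0.068). SYT7 had the strongest of these differences by adjusted p, at -1.63 ± 0.21 (adjusted p = 3.57e-04), followed by UNC13A at -0.72 ± 0.12 (0.00165). Neither SYN3 (-0.02 ± 0.13) nor CPLX2 (0.24 ± 0.26) was called between the naive lines.

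A further list of 69 genes of the same machinery, such as other syntaxins, Munc18 proteins, liprins, RAB3 and RAB27 GTPases and synaptogyrins, was examined beside the members. Of 64 tested, 10 fell and 7 rose (26.6% called, against 25.7% of all genes), with a median log2 fold change of 0.05. Those named here were among the called genes with the largest changes, and all were lower. RIMS4, which encodes a short RIM protein, had -3.98 ± 0.21. The calcium sensor gene DOC2A had -2.46 ± 0.37, RAB3C -2.40 ± 0.32, the tomosyn-2 gene STXBP5L -2.40 ± 0.24 and the liprin gene PPFIA3 -2.19 ± 0.41, with adjusted p-values of 9.54e-05 to 0.00925. The 7 that rose, chosen after their values were seen, were VAMP8 (2.06), RAB27A (1.03), STXBP5 (0.88), STX2 (0.67), SYPL1 (0.60), STX8 (0.55) and NAPG (0.41). VAMP8 serves late endosomes and regulated secretion. With the naive duplicates summed, 6 of the list fell and 1 rose. Without single libraries 9 to 16 fell and 3 to 15 rose.

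REST, the repressor of RE1 genes, was at 943.7 and 943.1 CPM in naive RH6, 1103 and 1286 CPM in naive RH5, 720.2 CPM in primed RH6 and 609.6 CPM in primed RH5. All 4 naive libraries lay above both primed ones. The log2 fold change over the lines was 0.67 ± 0.16 (adjusted p = 0.0227). It was 0.39 ± 0.13 within RH6 and 0.97 ± 0.13 within RH5. Its call was lost under 4 of 11 alternatives, without naive RH6 replicate 2 (adjusted p = 0.0577) or naive RH5 replicate 1 (0.0716) or 2 (0.0555) and with the duplicates summed (0.14). Its part in the levels of the members was not tested.

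Markers of other cell types moved too. Of 12 neuron markers, 3 fell and 0 rose (25%, against 25.7% of all genes). The 3 were the RNA-binding protein genes ELAVL4 (-4.67 ± 0.55), RBFOX3 (-3.73 ± 0.40) and ELAVL3 (-2.60 ± 0.52). The summed level of the 12 was 178.9 to 371.6 CPM in naive and 137.5 and 170.8 CPM in primed libraries. Of 10 tested neural progenitor markers (of 11), 6 fell and 1 rose. The largest falls were those of the eye and forebrain factor genes RAX (-6.45 ± 0.50), SIX3 (-6.37 ± 0.41) and PAX6 (-3.95 ± 0.34). The gene that rose was FABP7 (1.83), and its call held under all 11 alternatives. The summed level of the neural progenitor markers was 717.5 to 1112 CPM in naive and 690.9 and 934.6 CPM in primed libraries. Of 5 tested neuroendocrine markers (of 6), 2 fell, CHGA and CHGB, which are also dense-core vesicle genes, and the summed level was 86.5 to 93.6 CPM in naive and 91.9 and 106.6 CPM in primed libraries. The 5 include SYP, which is also a member of the release genes examined here, so this list is not independent of them. Fibroblast markers, the cell type of the feeders, rose in 8 of 16 tested (of 18) and fell in 1, with 1584 to 3238 CPM in naive and 764.6 and 1277 CPM in primed libraries, and mesendoderm markers rose in 3 of 9 (of 10), with 250.7 to 384.5 CPM against 11.2 and 73.1 CPM. No marker on these lists was at 0 counts over all libraries.
Within the lines more of these markers were called. Over all genes 33.6% were called in RH6 and 33.5% in RH5. Of the 12 neuron markers, 7 fell and 4 rose in RH6 (91.7% called), and 3 fell and 3 rose in RH5 (50%). Of the 10 neural progenitor markers, 8 fell and 1 rose in RH6, and 5 fell and 3 rose in RH5. Of the 5 neuroendocrine markers, 3 fell in RH6, the member SYP among them, and 2 fell and 1 rose in RH5. Fibroblast markers rose in 13 of 16 in RH6 and in 8 of 16 in RH5, with 1 that fell in each line. Mesendoderm markers rose in 9 of 9 in RH6, while in RH5 5 rose and 3 fell. Of the 10 pluripotent markers, 5 fell and 2 rose in RH6, and 7 fell and 0 rose in RH5. The part of these cell types in the results for the release genes was not tested. In bulk RNA, fewer cells that express a gene and less RNA per cell cannot be told apart.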

How the data were processed

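RNA of 6 libraries was measured by sequencing. Per the labels' protocols, RNA without the small fraction was treated with DNase and made into libraries with a stranded total RNA kit (the molecule field says polyA RNA), and paired-end reads were sequenced on a NextSeq500. Per the submitters' processing notes, the tools were STAR 2.4.0a, featureCounts 1.4.5-p1, Subread, FastQC and DESeq2; GRCh37.p5 and hg19 are listed as builds, in no stated order. The annotation used, and whether strand was counted, is not given in the sources used here. The values the authors deposited are raw counts, whole numbers for each gene without normalization.

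Counts were tested with edgeR 4.0.16 (R 4.3.3, with limma 3.58.1) by its quasi-likelihood F-test with TMM factors on the 19434 genes kept by filterByExpr (state as group, minimum count 10, minimum total 15). Naive against primed was fitted with the line as covariate (3 residual degrees of freedom). Effects within lines, their difference and the naive lines came from a second fit in which every group had 1 mean of its own (2 residual degrees of freedom). P-values were adjusted by Benjamini-Hochberg over all genes tested, two-sided, and called under 0.05. The SE is the log2 fold change over the root of F. An exact permutation test of 4 against 2 libraries cannot give a one-sided p under 0.0667. Naive duplicates differed by a chi-square of 9.22 (RH6) and 5.76 (RH5) per gene, above the counting noise of about 1, and were kept apart. On simulated counts for naive against primed, the test recovered 83.5% of 200 genes changed 2-fold among 18694 tested. The simulated counts had a smaller spread than the data and the same effect in both lines. Only genes above a set mean count were changed, so this rate does not hold for members with few counts. Alternatives were DESeq2 1.42.0, RLE factors, no low-count filter, no line term, each library left out, summed naive duplicates and a replicate block. Their use on the further lists and REST was added after the data were seen.

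The members, gene lists and roles were chosen with earlier results of these data known. Named were all members and, of each further list, at most 6 called genes with the largest change, with REST whatever its result; 1 gene that this rule names is not reported here. Sequences are from RefSeq (GRCh38.p14) and exon lengths from GENCODE 29.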

Additional observations from a re-analysis of the deposited data

Results flagged for a closer look

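For 6 members the effect of state differed between the lines by the test of that difference (edgeR, effect in RH6 minus effect in RH5). The difference was 2.25 for SYT4 (adjusted p = 0.00248) and 1.04 for RIMS2 (0.0096), which fell less, or not, in RH6. It was -2.07 for SYT7 (0.00205), -1.22 for RIMS3 (0.0118), -2.03 for SYT11 (0.0464) and -4.47 for SYT3 (0.0196), which fell further in RH6. The value of SYT3 rests on 1 count in the naive RH6 libraries and is not a measure of size. SYT4, SYT7 and RIMS2 were called under all 7 alternatives run for this test. Each primed group is 1 library, so line, passage and library cannot be told apart in these differences.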

How the results depend on the processing

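For naive against primed over both lines, the number of members that fell was 22, 18 to 23 with single libraries left out, 9 with the naive duplicates summed and 19 to 24 under the other alternatives. The number that rose was 2, 0 to 3 with single libraries left out, and 0 without the line term or with the duplicates summed. Over all genes, 4996 were called, 2961 to 6704 with single libraries left out and 1127 with the duplicates summed. Within RH6, DESeq2 called 1 member higher in place of 3, and leaving out single libraries 1 to 3 higher. Within RH5, DESeq2 called 1 higher in place of 2 and 14 lower in place of 22, and leaving out single libraries 1 to 3 higher. The members with the lower effect in RH6 numbered 4, 1 by DESeq2 and 3 to 6 with single libraries left out. Those higher in naive RH6 than naive RH5 numbered 3, 2 with any single naive library left out. DESeq2 also called fewer of all genes in these group fits (4036 in place of 6528 in RH6, 3936 in place of 6506 in RH5, 1305 in place of 2337 for the difference and 2856 in place of 4952 between the naive lines). The cause was not tested.

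Directions turned for 4 members. SYT4 over both lines was 0.65 without primed RH5 and -1.63 without primed RH6. STX4 over both lines was -0.30 without primed RH5, and positive without naive RH6 replicate 1 (0.05), naive RH5 replicate 1 (0.03) or primed RH6 (0.22), and within RH5 it was -0.16 without naive RH5 replicate 2 and 0.52 without replicate 1. VAMP2 over both lines was 0.0034 by DESeq2 and with RLE factors, 0.0112 with no low-count filter, 0.0153 with the duplicates summed, 0.14 without naive RH6 replicate 1, 0.27 without primed RH6 and -0.23 without primed RH5. UNC13B within RH6 was 0.0123 without naive RH6 replicate 1 and -0.072 without replicate 2. Of the estimates with the turned direction, none was called.

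The labels give both naive lines replicate numbers 1 and 2 without saying what they share. The deviations of the duplicates from their group means correlated at 0.14 across genes. With the number as a replicate block over the 4 naive libraries, 12 members were lower and 3 higher in RH6 than in RH5, in place of 9 and 3, and 7421 of all genes were called in place of 4952. Depth limits the members with few counts: 3 counts are 0.201 to 0.223 CPM.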

Other observations

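Dense-core vesicles store peptides and amines and use much of the same fusion machinery. Of 13 tested dense-core vesicle genes (of 14), 10 fell in naive cells and 1 rose (84.6% called, against 25.7% of all genes), with a median log2 fold change of -1.95. The granin genes SCG2, CHGA and CHGB had -4.05 ± 0.52, -2.59 ± 0.32 and -2.36 ± 0.38, the chaperone gene SCG5 -3.04 ± 0.19, the phosphatase-like gene PTPRN2 -3.16 ± 0.34 and the convertase gene PCSK2 -2.20 ± 0.40. The carboxypeptidase gene CPE, chosen after its value was seen, had 1.16 ± 0.13. Without single libraries 8 to 11 of the list fell, and with the naive duplicates summed 6 did.

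Vesicle recycling genes went both ways, with 5 of 25 tested lower and 4 higher (36% called, against 25.7% of all genes, 13.6% lower and 12.1% higher). The endophilin gene SH3GL2 had -4.91 ± 0.55, the amphiphysin gene AMPH -2.71 ± 0.50 and the dynamin gene DNM1 -1.20 ± 0.13, while the clathrin adaptor genes PICALM (0.74 ± 0.15) and AP2B1 (0.48 ± 0.13) and the scaffold gene ITSN2 (0.53 ± 0.12) rose. With the duplicates summed 2 of the recycling genes fell and 0 rose, and without single libraries 2 to 6 fell and 1 to 8 rose. Of 8 vesicular transmitter transporter genes 3 could be tested, and the glutamate transporter gene SLC17A7 (-2.40 ± 0.35) and the nucleotide transporter gene SLC17A9 (-1.48 ± 0.28) fell, though neither was called with the duplicates summed.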
